A study of Mus musculus with 8 samples.

Results

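Interferon-high macrophages are described here as they appeared in mouse bone marrow cultures exposed to CYR61, an integrin-binding matricellular protein encoded by Ccn1. The cells were chosen by their own readout. A barcode was a member when at least 3 of Ifit1, Ifit2, Ifit3, Isg15, Oasl2, Cmpk2, Mx1 and Rsad2 had a unique molecular identifier (UMI, 1 counted RNA molecule) and fewer than 2 of Il1b, Acod1, Saa3 and Ccl5 did. It also had to hold at least 300 genes and 2000 UMIs, to draw no more than 20% of UMIs from the mitochondrial genome, and to lie in the library that held most of its UMIs at that date. The rule found 1741 members among 2700 CYR61 cells that passed the same filters, out of 3241 such cells and 40000 listed barcodes in all 8 libraries. CYR61 replicates 1 to 4 gave 528, 965, 59 and 189 members.

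The CYR61 group and the Control group each had 4 single-cell libraries made on the HIVE platform, which captures cells in small wells. All came from hind limb marrow of C57Bl/6J mice, labelled as males aged 10 weeks, and all cultures grew for 3 days with M-CSF, the growth factor that drives macrophage differentiation. The CYR61 cultures then had 4 µg/mL of the protein for 24 h, and the Control cultures had none. The labels do not say whether replicates came from separate animals or cultures, so p-values measure the spread between these libraries, which may be technical.

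Macrophage markers were broadly detected in the members. Lyz2, a lysozyme, was found in every one, Itgam in 98.8%, Cd68 in 96.8% and Adgre1, which encodes F4/80, in 94.4%. Csf1r, the M-CSF receptor, was found in 88.4%, Fcgr1 in 86.8%, Mrc1 in 83.0% and Mertk, an efferocytosis receptor, in 71.0%. These shares pool the libraries, and replicates 1 and 2 held most members. The lowest library had 81.4% for Adgre1, 66.1% for Csf1r, 62.7% for Mrc1 and 57.6% for Mertk. All kept Control cells had 81.3%, 73.4%, 66.7% and 55.5% in the same order. Of the B cell markers, Cd79a and Ms4a1 had 0 UMIs in members, Ebf1 was found in 4 members, Cd79b in 27 (1.55%) and Ighm in 38 (2.18%). Of the T and NK cell markers, Cd3e, Trac, Nkg7 and Gzma had 0 UMIs, Cd3d was found in 2 members and Klrb1c in 6. All 5 mast cell or basophil markers had 0 UMIs. A count of 0 allows up to 0.172% of members with a UMI of that gene and sets no limit on cells that express it. Markers shared with other myeloid cells were more frequent: Tcf4 in 64.2% of members, Itgax in 43.3%, S100a9 in 31.9% and S100a8 in 30.7%. The highest library had 69.5% for S100a9, 72.9% for S100a8 and 45.8% for Ngp, which 9.19% of all members held. Siglech, a plasmacytoid dendritic cell marker, was found in 4 members. Cells with at least 2 of the neutrophil granule genes Ngp, Ltf and Camp made up 1.14%, 0.933%, 27.1% and 12.2% of members in replicates 1 to 4.

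Some facts of the libraries bear on every value below. Total UMIs per library ranged from 1379637 to 16318946. Barcodes recurred between libraries of the same date, and 1561 members (89.7%) were also listed in another library of that date, always including a Control library. The median member had 75.9% of its barcode's UMIs in its own library, and the library medians were 67.9%, 76.3%, 64.4% and 96.0%. CYR61 replicates 1 and 2 and Control replicates 2 and 3 carried Xist, while CYR61 replicates 3 and 4 and Control replicates 1 and 4 carried Y-linked RNA, although all are labelled male. The deposited files carry a date stamp, earlier for replicates 1 and 2 of both groups and later for replicates 3 and 4, and what it records is not stated. Within the CYR61 group the date and the Xist or Y split cannot be told apart.

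Type I interferons signal through the receptor IFNAR1 and IFNAR2 and the kinases JAK1 and TYK2. These activate a complex of transcription factors, among them STAT2 and IRF9, that binds the interferon-stimulated response element, a pair of GAAA repeats in the promoters of many antiviral genes. Macrophages both make interferon and answer it, and the answer is known to arm them with sensors of foreign RNA and DNA, blockers of translation and membrane proteins that hold back viruses. The 8 genes of the rule belong to this answer. Ifit1, Ifit2 and Ifit3 encode proteins that bind foreign RNA or its partners, Isg15 a ubiquitin-like modifier, Oasl2 a relative of the RNA-activated oligoadenylate synthetases, Cmpk2 a mitochondrial nucleotide kinase, Mx1 an antiviral GTPase and Rsad2 the enzyme viperin. On mm10, Ifit2, Ifit3 and Ifit1 lie close together on the plus strand of chromosome 19, with Ifit2 starting at 34550694 and Ifit1 ending at 34650009. Rsad2 (26442746 to 26456452, minus strand) and Cmpk2 (26469204 to 26479837, plus strand) are neighbours on chromosome 12.

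Promoters of 4 of the rule genes held the spaced GAAA pair, and they are shown because the cells were chosen by these genes. The motif searched was GAAANNGAAA or, read from the other strand, TTTCNNTTTC, in the RefSeq promoter of each gene, from 250 bases before its start to 50 after (GRCm38.p6). Each window of 30 bases is given on the gene's own strand with the motif in capitals.
Ifit1, chr19:34640785-34640814, plus strand: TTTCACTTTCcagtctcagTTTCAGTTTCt
Ifit3, chr19:34583404-34583433, plus strand: ctgTTTCAGTTTCtactttcctcttccctt
Isg15, chr4:156200870-156200899, minus strand: tagGAAAAGGAAACCGAAACAGAAAatagc
Rsad2, chr12:26456546-26456575, minus strand: aacTTTCATTTTCagaaaacagaaactctg
The Isg15 window held 3 overlapping matches and the Ifit1 window 2. A promoter was listed for 7 of the 8 genes, and Ifit2, Oasl2 and Cmpk2 had no match in theirs. Over all 27025 genes with a listed promoter, 1079 (3.99%) held the motif. A match describes letters, not a site in use.

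Whether a cell reached 3 of the 8 followed its depth in both groups. Among CYR61 cells with 2000 to 4000 UMIs, 41.1% had at least 3 of the 8 and 9.77% had none, while the Control cells of that depth had 0.0% and 81.2%. Above 16000 UMIs, 97.7% of 345 CYR61 cells had at least 3 and none had 0, against 25.6% of 90 Control cells with at least 3 and 21.1% with none. Shares at full depth therefore mix depth with expression. Members had median depths of 8354, 7781, 4847 and 9873 UMIs in replicates 1 to 4.

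At full depth, the rule found 66.2%, 61.9%, 66.3% and 74.4% of kept cells in CYR61 replicates 1 to 4, and 4.33%, 8.05%, 6.76% and 3.17% of those in Control replicates 1 to 4. The means were 67.2% ± 5.23 and 5.58% ± 2.22 (SD, n = 4 libraries each). The 27 Control cells that passed, 11, 7, 5 and 4 by replicate, were deep, with a median of 32836 UMIs. Their other interferon-induced genes stood at 3597 CPM (UMIs scaled to a total of 1000000, here outside the rule genes), beside 10223 CPM in the 1142 CYR61 members at least as deep as the shallowest of them. A further 117 CYR61 cells had 3 or more of the 8 but were left out for their inflammatory genes, and 37, 81, 0 and 1 CYR61 cells had none of the 8. These shares are a description, since the rule was chosen with the difference between the groups known.

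When every cell was thinned to 2000 UMIs, at least 1 of the 8 was found in 83.1%, 81.7% and 96.1% of cells in CYR61 replicates 1, 2 and 4 and in all 89 cells of replicate 3. The Control replicates gave 11.0%, 21.8%, 17.6% and 14.3%. At least 3 of the 8 were found in 31.7%, 26.4%, 65.2% and 58.7% of thinned CYR61 cells and in 0.0% of thinned Control cells in each library. The groups did not overlap on either share. Both shares were higher in CYR61 replicates 3 and 4, the libraries of the later date, than in replicates 1 and 2.

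**Figure D1:**
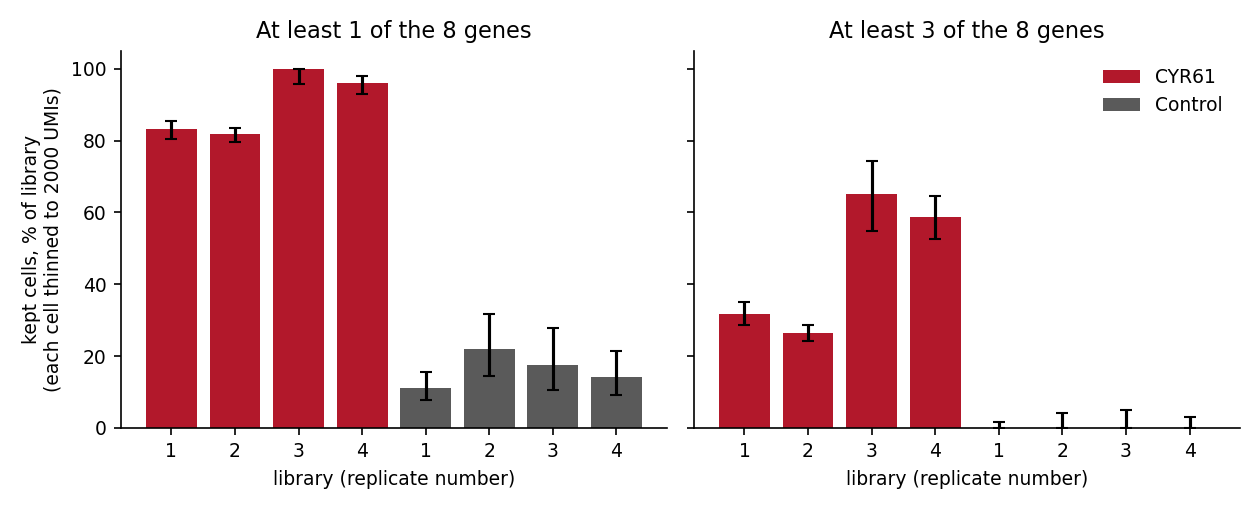
Share of kept cells (%) with at least 1 (left) or at least 3 (right) of the 8 rule genes after every cell was thinned to 2000 UMIs, by library, with 95% Wilson intervals that cover counting error alone. CYR61 libraries sat at 81.7% or more on the left, and Control libraries at 21.8% or less; on the right every Control library was at 0.0%.

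The members grade into the cells around them. Of the members, 391 (22.5%) had exactly 3 of the 8, 370 had 4, 357 had 5, 267 had 6, 192 had 7 and 164 (9.42%) had all 8. Cells just inside the rule, with exactly 3, had 7573, 7320, 13480 and 10599 CPM of other interferon-induced genes in replicates 1 to 4. Cells just outside, with exactly 2, had 6967, 6782, 13794 and 10827 CPM. These values rest on 123, 235, 10 and 23 cells with exactly 3 and on 132, 267, 5 and 13 cells with exactly 2. Depth rose with the number as well, from a median of 4076 UMIs at exactly 3 to 16736 UMIs at all 8 in replicate 1. The list of other interferon-induced genes had 60 members, none of them in the rule, and 59 were listed in the files.

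Levels of the rule genes are given as a description of the members beside all kept Control cells. Ifit2 had 486, 412, 1390 and 1224 CPM in members of CYR61 replicates 1 to 4, and 7.68, 17.5, 20.3 and 7.90 CPM in Control replicates 1 to 4. Rsad2 had 291, 257, 773 and 614 CPM in members and 35.8, 24.8, 21.9 and 48.7 CPM in Control cells. Both genes were higher in the members of replicates 3 and 4. Isg15 had 260, 241, 279 and 382 CPM in members and 9.87, 18.6, 36.0 and 18.4 CPM in Control cells. Oasl2 had 235, 223, 301 and 300.1 CPM in members and 14.3, 38.2, 26.6 and 17.1 CPM in Control cells. Isg15 and Oasl2 varied less between CYR61 libraries than Ifit2 did.

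The other rule genes were sparser. Ifit1 averaged 117 ± 19.8 CPM in members and 1.56 ± 1.54 CPM in Control cells, and Mx1 135 ± 63.3 CPM in members and 2.26 ± 1.53 CPM in Control cells (SD, n = 4 libraries each). Ifit3 averaged 154 ± 70.1 CPM in members and lay between 0 and 6.19 CPM in Control libraries. Cmpk2 averaged 108 ± 24.4 CPM in members and 6.54 ± 3.93 CPM in Control cells. It was lowest in replicate 3, at 77.8 CPM, where Ifit1, Ifit2, Ifit3, Mx1 and Rsad2 were highest. Ifit2 was found in 83.2% of members and Isg15 in 80.4%, but Mx1 in 43.0% and Ifit1 in 43.6%. Ifit3 has a near copy, Ifit3b, whose promoter window holds the same 30 bases, so reads may be split between them.

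**Figure D2:**
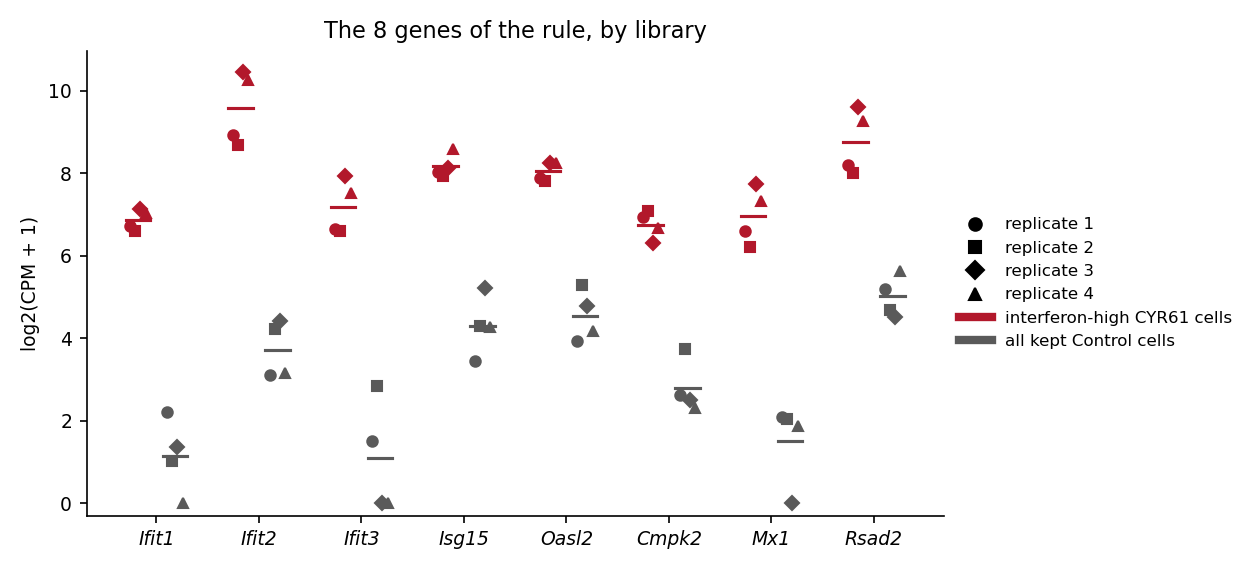
Level of each rule gene as log2(CPM + 1), with members of the 4 CYR61 libraries left of all kept cells of the 4 Control libraries; each symbol is a library and each line the mean of its group. Ifit2 and Rsad2 were the highest rule genes in members. Every member library lay above every Control library for all 8, but members were chosen by these genes. All kept CYR61 cells, not shown, also lay above every Control library for all 8. Ifit2 had at least 354 CPM there and at most 20.3 CPM in Control, and Oasl2 at least 198 and at most 38.2 CPM. The 8 were chosen with the difference between the groups known.

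The 8 genes were also found in barcodes that were not kept. Barcodes with under 300 genes, which may hold free RNA or shallow or damaged cells, carried 868, 674, 2341 and 2194 CPM of the 8 in CYR61 replicates 1 to 4, and 69.6, 81.8, 72.6 and 60.9 CPM in Control replicates 1 to 4. Members carried 1693, 1530, 3413 and 3090 CPM. Members were chosen by these genes, so their higher level than the low barcodes follows from the rule. All kept CYR61 cells carried 1568, 1315, 3204 and 3185 CPM in replicates 1 to 4. Those with 1 or 2 of the 8 carried 556, 492, 1170 and 883 CPM, below the low barcodes of their library. These cells were chosen for few of the 8, so the rule shapes their lower level too. Members and low barcodes were both higher at the later date. How far free RNA adds to the count of the 8 in a cell was not tested.

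The inflammatory genes of the rule were rare in members, as the rule requires. Il1b was found in 1.44% of members, Acod1, the itaconate enzyme, in 2.70%, Saa3 in 8.10% and the chemokine gene Ccl5 in 9.08%. Acod1 had 57.7 and 36.1 CPM in members of replicates 3 and 4, and 1.97 and 1.81 CPM in those of replicates 1 and 2.

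Few UMIs of the interferon genes themselves were counted. Members held 1 UMI of Ifnb1, 1 of Ifna6 and 0 of Ifng and Ifnk. A count of 0 limits members with a UMI to 0.172% and says nothing of members that express the gene below capture. Ifnb1 encodes interferon beta, a type I interferon that macrophages can secrete. Production at another time or by cells that were not kept was not measured.

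Interferon-induced genes that the rule did not use were graded with the number of the 8. In cells thinned to 2000 UMIs for counting the 8, those with 5 or more of the 8 had 16836, 14428, 17829 and 19495 CPM of the other interferon list in replicates 1 to 4. Cells with exactly 1 had 7829, 7702, 12937 and 11333 CPM. The level was higher at each step from 1 to 5 or more in every CYR61 library. Cells with none had 6982, 6772 and 10508 CPM in replicates 1, 2 and 4, and Control cells with none had 3016, 2684, 2615 and 2584 CPM.

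The ratio of cells with 3 or more to cells with 0 or 1 of the 8 was 1.61, 1.48, 1.25 and 1.49 in replicates 1 to 4, a mean of 1.46 ± 0.151 (SD, n = 4). Macrophage markers did not climb at each step in any library. Their summed level was 11648 CPM at 5 or more and 11543 CPM at exactly 1 in replicate 1, and 11667 and 11408 CPM in replicate 2. In replicate 4 it was 12614 and 12569 CPM, and in replicate 3 13027 and 11919 CPM, with a peak of 16964 CPM at exactly 2. Neutrophil markers did differ along the steps in replicate 3, where cells with 5 or more had 995 CPM and cells with exactly 1 had 5548 CPM. These values were 349 and 2213 CPM in replicate 4, 188 and 473 CPM in replicate 1, and 209 and 210 CPM in replicate 2. The mean ratio was 1.40 without neutrophil-like cells, and the part of neutrophil RNA in the graded level was not tested.

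**Figure D3:**
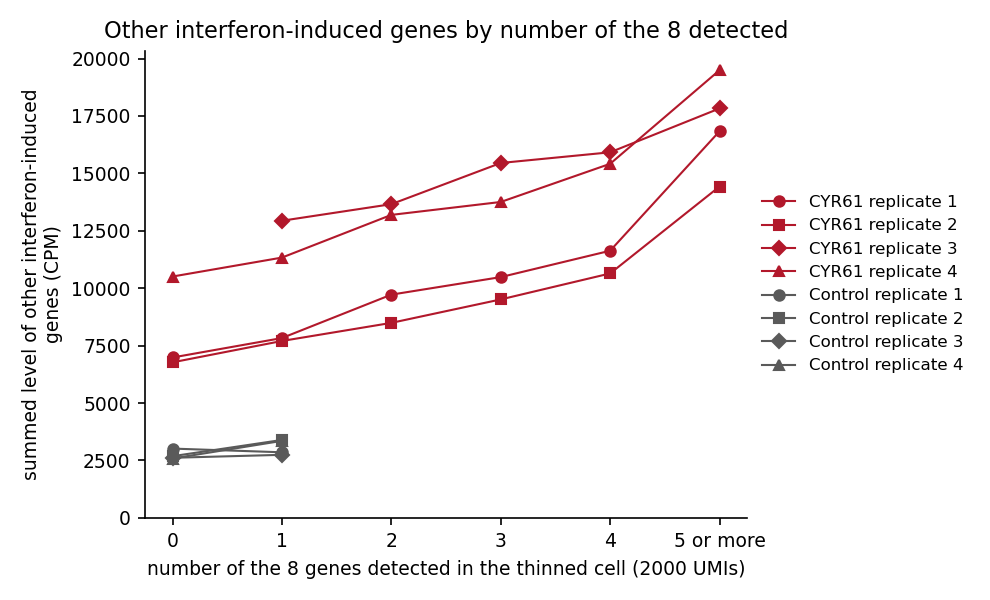
Summed level of the other interferon-induced genes (CPM) against the number of the 8 rule genes detected after thinning to 2000 UMIs; each line is a library, and points with under 10 cells are left out. All 4 CYR61 lines climb from 1 to 5 or more, and the Control lines stay at 3391 CPM or less.

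The first test compared members with CYR61 cells that had none of the 8, matched 1 to 1 on UMIs within a library. Only CYR61 replicates 1 and 2 had 10 pairs or more, with 37 and 81 pairs at median depths of 2632 and 2588 UMIs in members and 2632 and 2596 UMIs in matched cells. No gene of 3935 passed edgeR's quasi-likelihood test with the library as a block and Benjamini-Hochberg adjusted p under 0.05 (0.0% called), and DESeq2 called none either. At an unadjusted p under 0.05, edgeR had 162 genes (2.19% higher and 1.93% lower) and DESeq2 had 10. The other interferon-induced genes were on one side all the same: 38 of 39 tested were on the higher side in members, at a median log2 fold change of 0.74, beside 0.01 for all genes together. Of these 39, 35 were higher in both libraries, against 25.5% of all genes tested.

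Named members of that list show the size. Ifi209, a member of the Ifi200 family of DNA-binding proteins, had 336 and 410 CPM in members and 109 and 189 CPM in matched cells of replicates 1 and 2 (log2 fold change 1.27 ± 0.25 SE, edgeR adjusted p = 0.492). Slfn5, a Schlafen family member, had 908 and 770 CPM in members and 463 and 488 CPM in matched cells (0.78 ± 0.17, edgeR adjusted p = 0.492). Both were higher in members in each library, and neither passed. Both are named because they passed the second test, below.

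The second test took all 4 CYR61 libraries by matching members to cells with at most 2 of the 8, which gave 187, 396, 11 and 19 pairs. Here and in the first test, the matched cells had no limit on the inflammatory genes of the rule, while members did. This design was added after it was seen that replicates 3 and 4 had 1 cell or fewer with none of the 8. Of 6448 genes, 51 rose in members (0.791% called) and 11 fell (0.171% called), 0.962% in all, by edgeR's quasi-likelihood test with adjusted p under 0.05. Of the other interferon-induced genes, 55 were tested, 32 rose and 0 fell. All 55 were on the higher side, at a median log2 fold change of 0.69, beside 0.00 for all genes together, and 22 of them were higher in every library, against 6.41% of all genes. Below, genes named for the size of their change also had to move the same way in every library. Their shared direction follows from that choice. In replicates 3 and 4, with 11 and 19 pairs, the direction of a gene can rest on a few UMIs, as the counts given for Marco below show.

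Within replicates 1 to 4 the list's median log2 ratio was 0.67, 0.58, 0.30 and 0.35. The count of genes rests on replicates 1 and 2, which held most pairs. It was 101 at the earlier date alone, 0 of 891 genes at the later date alone, 0 without replicate 1 and 1 without replicate 2. At an unadjusted p under 0.05, the later date had 32 genes and the fit without replicate 1 had 25. DESeq2 called 4 genes. With only barcodes listed in a single library of the date, 0 of 2469 genes passed, and 90 had an unadjusted p under 0.05. The interferon list's median stayed positive in these settings, at 0.72, 0.20, 0.50, 0.56, 0.61 and 0.31 in the order just given.

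Some of the genes that rose encode sensors of foreign nucleic acid. Ifih1, which encodes the RNA sensor MDA5 (mm10 chromosome 2, 62595798 to 62646255), had 163, 164, 339 and 108 CPM in members and 102, 96.1, 92.5 and 92.9 CPM in matched cells of replicates 1 to 4. Members were above matched cells in every library (log2 fold change 0.76 ± 0.14, edgeR adjusted p = 0.000266). With barcodes listed in 1 library of the date, Ifih1 turned to -0.11. Zbp1, a sensor of Z-form nucleic acid, had 112, 84.3, 154 and 170 CPM in members and 49.2, 59.2, 30.8 and 46.4 CPM in matched cells (0.83 ± 0.19, edgeR adjusted p = 0.00465). Ddx58, which encodes RIG-I, also rose, by 0.62 ± 0.15 (edgeR adjusted p = 0.0101). A list of upstream sensors and adaptors such as Tlr3, Myd88 and Irf3 had 0 of 13 tested members that passed, beside 0.962% of all genes. Of these 13, 10 were on the higher side, at a median of 0.19, beside 0.00 for all genes together.

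Several genes of the Ifi200 family, DNA-binding proteins that include cytosolic sensors, were among the calls. Ifi209 (chromosome 1, 173630917 to 173647928) had 337, 382, 616 and 356 CPM in members and 186, 193, 463 and 480 CPM in matched cells (0.85 ± 0.11, edgeR adjusted p = 5.91e-08). Members were above matched cells in replicates 1, 2 and 3 and below them in replicate 4, where 23 and 31 UMIs were counted, and the log2 fold change was -0.12 at the later date alone. Ifi204 had 617, 514, 586 and 713 CPM in members and 336, 345, 524 and 588 CPM in matched cells (0.67 ± 0.09, edgeR adjusted p = 7.17e-08). Ifi206 and Ifi213 rose by 1.37 ± 0.35 and 1.36 ± 0.32, in all 4 libraries (edgeR adjusted p = 0.0239 and 0.00913). Members of this cluster on chromosome 1 are close copies of each other, as are the Slfn, Gbp, Ms4a, Trim30 and H2-T genes, so reads may be split between them.

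Transcription factors of the response were among the calls. Irf7, which amplifies interferon production, had 296, 191, 740 and 806 CPM in members and 115, 111, 771 and 495 CPM in matched cells (0.93 ± 0.12, edgeR adjusted p = 1.44e-07). Stat2 rose by 0.63 ± 0.11 (edgeR adjusted p = 0.00020). Of 7 receptors and kinases above them that were tested, 0 passed, beside 0.962% of all genes. Ifnar1 was at 0.04 ± 0.11 and Jak1 at 0.02 ± 0.10. Ddx58, Irf7 in this test and Stat2 lie outside the rule for naming genes and were chosen after their values were seen.

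Slfn5 (chromosome 11, 82951349 to 82964840) had 872, 743, 1017 and 713 CPM in members and 483, 498, 1018 and 542 CPM in matched cells (0.66 ± 0.08, edgeR adjusted p = 3.23e-08). Rnf213, a very large ubiquitin ligase, had 346, 318, 339 and 248 CPM in members and 185, 198, 308 and 170 CPM in matched cells (0.76 ± 0.11, edgeR adjusted p = 4.9e-07). Rnf213 was higher in members in each library, and Slfn5 in all but replicate 3, where 33 UMIs were counted on each side. Trim30a rose by 0.72 ± 0.12, Xaf1, an apoptosis factor, by 0.84 ± 0.19, and Tor3a, an endoplasmic reticulum ATPase, by 0.75 ± 0.17, in all 4 libraries each.

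GTPases that attack pathogen vacuoles and the MHC class I pathway moved in part. Of 7 tested genes of the interferon-gamma-linked GTPase list, 3 rose: Gbp2 (0.89 ± 0.23), Irgm1 (0.82 ± 0.19) and Gbp7 (0.63 ± 0.17, edgeR adjusted p = 0.0369, 0.00663 and 0.0392). Gbp2 was higher in members in all 4 libraries, Irgm1 in 3 and Gbp7 in 2. Of 17 tested MHC class I and immunoproteasome genes, 2 rose and 15 did not pass, with a list median of 0.26. They were H2-T24, a non-classical class I gene with 103, 98.1, 61.6 and 93.0 CPM in members and 57.8, 51.0, 0.00 and 77.4 CPM in matched cells (0.91 ± 0.18, edgeR adjusted p = 0.0010), and Tap1, the peptide transporter subunit (0.68 ± 0.18, edgeR adjusted p = 0.0373). MHC class II genes had 0 of 6 that passed, beside 0.962% of all genes tested.

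Marco, a scavenger receptor that takes up bacteria and particles (chromosome 1, 120474538 to 120505024), had the largest increase the naming rule gave. It had 53.3, 47.3, 30.8 and 279 CPM in members and 8.56, 19.4, 0.00 and 31.0 CPM in matched cells of replicates 1 to 4, or 49, 96, 1 and 18 UMIs against 8, 40, 0 and 2. Members were above matched cells in every library (1.81 ± 0.30, edgeR adjusted p = 2.53e-05). Over all members, Marco had 22.8, 30.8, 10.1 and 39.0 CPM, beside 0.366, 8.26, 4.69 and 0.00 CPM in all kept Control cells.

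Genes linked to monocytes, macrophages and megakaryocytes were also among those that rose. Ms4a4c, a membrane protein of monocytes (chromosome 19, 11404770 to 11427246), rose by 1.42 ± 0.27 (edgeR adjusted p = 0.00034), with 81.6, 40.9, 277 and 139 CPM in members and 33.2, 9.71, 185 and 124 CPM in matched cells. Fcgr1, a high-affinity IgG receptor that is also a macrophage marker, rose by 0.43 ± 0.09 (edgeR adjusted p = 0.00187). It was the 1 of 8 macrophage markers that passed, and the list's median was 0.12. Pf4, a platelet chemokine gene that 91.6% of members contained, rose by 0.28 ± 0.08 (edgeR adjusted p = 0.0449), while of the other megakaryocyte markers Ppbp was found in 73 members (4.19%), Itga2b in 29 (1.67%) and Gp9 and Gp1bb in 5 each.

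**Figure D4:**
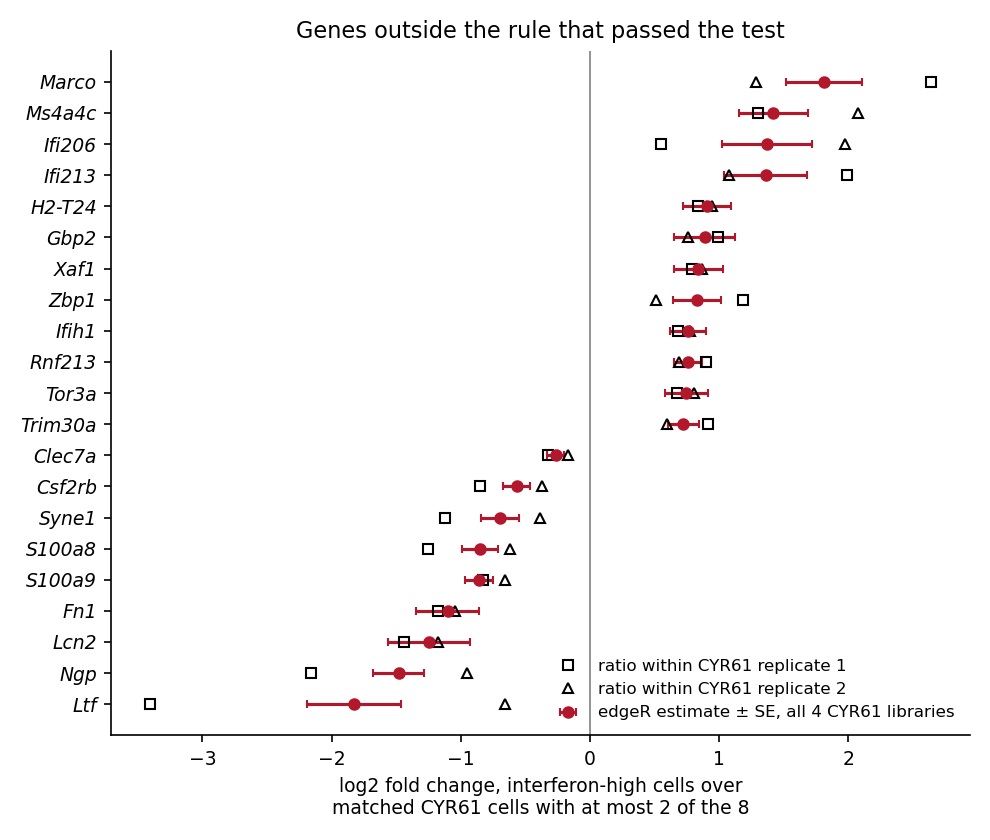
Log2 fold change of the genes named by size, members over matched CYR61 cells with at most 2 of the 8; points with bars are edgeR estimates ± SE from 4 libraries and open symbols the ratios within replicates 1 and 2. Both replicates lie on the side of the estimate for each gene because the naming rule required the same direction in every library. Replicates 3 and 4, with 11 and 19 pairs, have no symbol of their own.

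Neutrophil granule genes were lower in members than in their matched cells. Ngp had 21.8, 26.6, 247 and 325 CPM in members and 97.4, 51.4, 709 and 1083 CPM in matched cells (log2 fold change -1.48 ± 0.20, edgeR adjusted p = 1.49e-07). Ltf, lactoferrin, fell by 1.83 ± 0.36 and Lcn2, lipocalin, by 1.24 ± 0.32 (edgeR adjusted p = 0.00069 and 0.0269). S100a9, a subunit of calprotectin, had 141, 175, 894 and 1054 CPM in members and 252, 275, 4164 and 1578 CPM in matched cells (-0.86 ± 0.11, edgeR adjusted p = 6.58e-08), and S100a8 fell by 0.85 ± 0.14. Each was lower in members in all 4 libraries, as the naming rule required. Neutrophil-like cells numbered 2, 6, 1 and 1 among the members and 3, 9, 1 and 2 among the matched cells. Before matching they made up 1.14%, 0.933%, 27.1% and 12.2% of all members in replicates 1 to 4. Among cells with 1 or 2 of the 8 they made up 1.40%, 2.30%, 9.09% and 5.56%, where replicates 3 and 4 had 11 and 18 such cells. The lower level is thus a result for the matched cells, not for all members. Without neutrophil-like cells S100a9 and S100a8 still fell, by 0.70 and 0.77, and Ngp did not pass (-0.84, edgeR adjusted p = 0.638). With barcodes listed in 1 library of the date, S100a8 turned to 0.18.

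The genes that fell also included Fn1, Csf2rb, Clec7a and Syne1. Fn1, fibronectin, had 18.5, 38.0, 30.8 and 31.0 CPM in members and 41.8, 78.1, 123 and 92.9 CPM in matched cells (-1.10 ± 0.25, edgeR adjusted p = 0.00459). Csf2rb, the common beta chain of the GM-CSF and IL-3 receptors, had 235, 219, 216 and 170 CPM in members and 423, 282, 432 and 232 CPM in matched cells (-0.57 ± 0.10, edgeR adjusted p = 0.000268). Clec7a, the beta-glucan receptor dectin-1, which signals through SYK, fell by 0.26 ± 0.06 and Syne1, a nuclear envelope protein, by 0.70 ± 0.15. These 4 were lower in members in each library, as the naming rule required. Fn1 in members of replicate 3, at 30.8 CPM, stood at the level that a single UMI gave Marco there.

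The promoters of the genes that rose held the spaced GAAA pair more often than those of all genes tested. Of the 51 genes, 42 had a listed promoter and 23 of these (54.8%) held the motif, beside 4.26% of all genes tested and 0 of the 9 listed for genes that fell. The promoters of Irf7, Ifi209 and Marco had no match in their windows. These shares are a description of letters and were not tested.

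Lists that frame the study's title had medians near that of all genes in the second test. The title of the series names SYK, NF-kB and PDGF. Syk had 303, 290, 154 and 222 CPM in members and 249, 246, 225 and 225 CPM in all kept Control cells, and its log2 fold change against matched cells with at most 2 of the 8 was 0.04 ± 0.11 (edgeR adjusted p = 0.9998). Pdgfb had 30.01, 34.9, 25.2 and 25.5 CPM in members and 44.2, 31.0, 46.9 and 32.9 CPM in Control cells. Pdgfa averaged 39.9 ± 24.8 CPM in members and 59.5 ± 21.0 CPM in Control cells (SD, n = 4 libraries each). Nfkb1 averaged 73.0 ± 11.1 and 54.5 ± 5.64 CPM, and Rela 42.6 ± 10.9 and 47.1 ± 3.93 CPM, in the same order. Of 12 SYK pathway genes tested 0 passed (median 0.09), and of 15 NF-kB subunits and inhibitors 0 passed (median -0.04). Of 15 PDGF ligands and fibrosis-linked genes Fn1 alone fell (median 0.01). Of all genes tested, 0.962% passed. Nfkb1 was at -0.34 ± 0.19 and Rela at -0.10 ± 0.27, neither past the test, and Pdgfa at 0.15 ± 0.34. Matched for depth, Nfkb1 averaged 38.8 ± 36.5 CPM in members and 131 ± 55.2 CPM in matched cells (SD, n = 4 libraries each), and was higher in members in 0 libraries. These means weigh replicates 3 and 4, with few pairs, as much as replicates 1 and 2, so they overstate the estimate of -0.34. In CYR61 cells with none of the 8 against Control, the last test below, Pdgfa was at -1.80 ± 0.68 and Nfkb1 at 0.93 ± 0.46. Neither passed (edgeR adjusted p = 0.486 and 0.633). Syk, Pdgfb and Rela were there at 0.19 ± 0.28, -0.25 ± 0.63 and 0.18 ± 0.51. In the second test, lysosome, cholesterol, unfolded protein, S phase and mitosis lists had 0 genes that passed in either direction.

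The last test asked whether cells outside the rule also differed from Control. It used cells with none of the 8, of which CYR61 replicates 1 and 2 had 37 and 81 and Control replicates 1 to 4 had 162, 44, 46 and 91. Replicates 3 and 4 of CYR61 had 0 and 1 and were dropped. Median depths were 2632 and 2596 UMIs in CYR61 and 4320, 3230, 3169 and 3490 UMIs in Control, and the CYR61 libraries both carried Xist. In these cells the other interferon list summed to 6456 and 6040 CPM in CYR61 and to 2711, 2728, 2442 and 2477 CPM in Control. Members of the same CYR61 libraries had 9995 and 9045 CPM. The low barcodes had 6493 and 4540 CPM in CYR61 replicates 1 and 2 and 1740 to 2094 CPM in Control, so the cells with none lay near the level of the low barcodes in replicate 1. The part of free RNA in this difference was not tested.

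Of 5573 genes, 15 rose in CYR61 cells with none of the 8 (0.269% called) and 7 fell (0.126% called), 0.395% in all, by edgeR's quasi-likelihood test with adjusted p under 0.05. Without TMM factors the split was 8 and 7. Of the other interferon list, 8 of 34 tested rose and 26 did not pass. All 34 were on the higher side, at a median log2 fold change of 1.31, beside -0.01 for all genes together. The count was 20 at the earlier date alone, where Control replicates 1 and 2 stood against the same CYR61 libraries, and 0 with the date as a term, where 246 genes had an unadjusted p under 0.05. It was 1 without CYR61 replicate 1 and 0 without replicate 2, where 318 genes had an unadjusted p under 0.05.

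Interferon genes that rose in these cells spanned surface and signalling roles. Ly6e, an interferon-induced surface protein (chromosome 15, 74955051 to 74959905), had 429 and 335 CPM in CYR61 and 116, 57.1, 66.5 and 67.4 CPM in Control (2.29 ± 0.32, edgeR adjusted p = 0.00373). Rtp4, a chaperone of receptor transport, had 135 and 167 CPM in CYR61 and 8.70, 38.0, 22.2 and 12.04 CPM in Control (3.19 ± 0.50, edgeR adjusted p = 0.00447). CYR61 and Control libraries were fully apart for each of the 15 genes, as they were for 19.3% of all genes tested.

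Irf7 had 101 and 128 CPM in CYR61 cells with none of the 8 and 13.5, 38.0, 8.86 and 9.63 CPM in Control (2.88 ± 0.53, edgeR adjusted p = 0.0196). Ifitm3, which blocks viral entry, had 320 and 299 CPM in CYR61 and 94.7, 64.7, 53.2 and 108 CPM in Control (1.94 ± 0.32, edgeR adjusted p = 0.00622). Of the 15 genes, 9 had also risen in members against matched cells with at most 2 of the 8, which is 60.0% of the 15 and 17.6% of the 51. Irf7, Ifitm3, Rtp4 and Ms4a6b are among these 9. The CYR61 cells with none of the 8 entered both tests.

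Vcam1, an adhesion molecule of resident macrophages (chromosome 3, 116109949 to 116129688), had 177 and 96.2 CPM in CYR61 and 10.6, 19.0, 0.00 and 4.81 CPM in Control (3.90 ± 0.61, edgeR adjusted p = 0.00447). Unlike the interferon genes, it was lower in members than in matched cells with none of the 8, at 42.1 and 0.00 CPM against 177 and 96.2 CPM, though this did not pass (-3.20 ± 0.70, edgeR adjusted p = 0.492). Ccr2, the monocyte chemokine receptor, had the same order: 25.2 and 21.4 CPM in members and 84.2 and 118 CPM in matched cells with none, beside 12.6, 19.0, 22.2 and 0.00 CPM in Control (3.12 ± 0.65 over Control, edgeR adjusted p = 0.0452). These rest on few UMIs, 21 and 27 for Vcam1 and 10 and 33 for Ccr2 in the CYR61 cells with none.

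C1qa, a complement component made by mature macrophages, had 168 and 125 CPM in CYR61 cells with none of the 8 and 24.2, 30.4, 31.0 and 24.1 CPM in Control (2.48 ± 0.41, edgeR adjusted p = 0.00586). Members had 109, 79.3, 78.1 and 73.7 CPM of it. Of the genes that fell, Lyz1, a lysozyme gene close to Lyz2 and so open to split reads, had 16.8 and 24.9 CPM in CYR61 and 140, 126, 79.8 and 221 CPM in Control (-2.64 ± 0.54, edgeR adjusted p = 0.0452). Rpl14 and 5 pseudogenes or gene models made up the rest, and such copies share reads with their parent genes. Neutrophil markers summed to 1700 and 541 CPM in CYR61 cells with none and 1580, 2146, 88.6 and 1312 CPM in Control, and without neutrophil-like cells 13 genes rose and 7 fell.

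**Figure D5:**
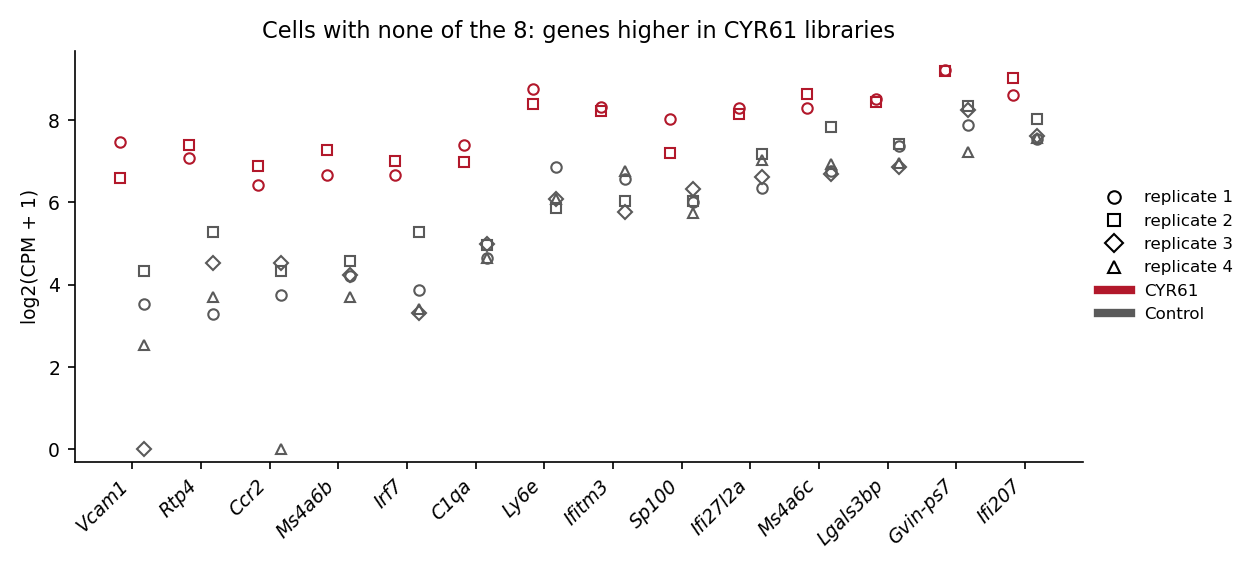
Level of 14 of the 15 genes that rose in CYR61 cells with none of the 8, as log2(CPM + 1), with CYR61 replicates 1 and 2 left of the 4 Control libraries; each symbol is a library. Both CYR61 libraries lie above every Control library for each gene shown, from Vcam1 with 3.90 to Ifi207 with 1.22 on the log2 scale.

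Some levels in members differed between the libraries of the earlier and the later date. Members of CYR61 replicates 3 and 4 had 15185 and 14578 CPM of the other interferon list, and members of replicates 1 and 2 had 9995 and 9045 CPM. Irf7 had 695 and 743 CPM at the later date and 210 and 177 CPM at the earlier, and Ms4a4c 184 and 166 CPM against 36.3 and 27.0 CPM. The MHC class I list had 8736 and 8199 CPM at the later date and 5478 and 4979 CPM at the earlier. The GTPase list had no such order, with 555, 460, 403 and 450 CPM in replicates 1 to 4. Interferon receptors and kinases were level, at 1491, 1537, 1438 and 1538 CPM. The share of neutrophil-like members, the Xist or Y split and the level of the 8 in low barcodes changed along the same line, and their part in these values was not tested.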

How the data were processed

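Single-cell RNA counts were deposited by the authors as UMI counts per gene and barcode, 5000 barcodes a library, made on the mm10 build per the submitters' processing notes. No aligner or counting tool is given in the sources used here. The members and gene lists were chosen with earlier results of these data known. Barcodes needed at least 300 genes, at most 20% mitochondrial UMIs and at least 2000 UMIs, and each was kept in the library of its date with most of its UMIs. Doublets were not called and were left in. Pairs were matched on UMIs within 0.2 on the log2 scale, in libraries with at least 10 pairs, and counts were summed per library and class. The 12 rule genes were left out of tests and library sizes. Sums were tested with edgeR 4.0.16 (TMM, filterByExpr, quasi-likelihood test, Benjamini-Hochberg) in R 4.3.3, with DESeq2 1.42.0 as an alternative. Tables were built with Python 3.11.15, numpy 2.4.6 and scipy 1.17.1, and the fitting script was tested on simulated data.

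CPM scales UMIs to a total of 1000000, over all UMIs for a rule gene and over UMIs outside the rule genes for another gene. Intervals are 95% Wilson intervals, and a count of 0 is bounded by 3 counts. Intervals and bounds cover counting error alone. Total UMIs per library set the precision and ranged from 1379637 to 16318946. The genes named had passed the test in the same direction in every library fitted (groups apart, against Control) with at least 50 CPM in the higher class, the 12 largest in each direction, or 6 against Control. To these were added up to 4 called members of each list in each direction and the genes of the study's title. Gene models, ribosomal protein genes and Y-linked genes were left out of the naming. The test planned against cells with none of the 8 called no gene, so the same rule named genes in the test against cells with at most 2 of the 8, which was added after seeing the data. Alternatives covered the tool, scaling, filters, matching, thinning, the rule's thresholds, date, the Xist or Y split, neutrophil-like cells, shared barcodes and each replicate left out. One gene's results are not reported here.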

Additional observations from a re-analysis of the deposited data

Results flagged for a closer look

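In 5 of 54 sets of 4 libraries, the highest or lowest library stood apart from the other 3 by more than Dixon's 95% value. Chance flags about 1 in 20 sets. Control replicate 2 was the highest of all kept Control cells for Cmpk2 at 12.4 CPM, for Saa3 at 8.26 CPM and for Ccl5 at 9.29 CPM. Among the members, CYR61 replicate 3 stood apart in the summed level of nucleic acid sensors and adaptors, at 1027 CPM, and CYR61 replicate 4 in that of NF-kB subunits and inhibitors, at 947 CPM.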

How the results depend on the processing

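Against matched cells with none of the 8, the count of genes that passed was 0 in edgeR's main setting and 9 without TMM factors, 12 without a filter on low counts, 35 without matching and 9 after thinning. It was 9 at 4 or more of the 8, 9 with the limit on inflammatory genes set on both classes, 6 at 10% mitochondrial UMIs, 97 with every barcode wherever listed, 62 against cells with at most 2 of the 8 and 127 with classes called after thinning. The later date, leaving out a replicate and barcodes of a single library left too few pairs and were not run. Against cells with at most 2 of the 8, the count of 62 became 4 with DESeq2, 17 after thinning, 97 with every barcode, 0 with barcodes listed in 1 library, 101 at the earlier date and 0 at the later date, and ranged from 0 to 70 with a replicate left out. In cells with none of the 8, the count of 22 became 73 without the filter, 11 after thinning, 8 at 10% mitochondrial UMIs, 0 with every barcode (433 genes at an unadjusted p under 0.05), 0 with the date as a term, 14 with the Xist or Y split as a term and 83 with at most 2 of the 8. It ranged from 0 to 39 with a replicate left out; 39 came without Control replicate 3. The later date alone was not run here, for want of CYR61 cells.

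The mean share passing the rule, 67.2% in CYR61 and 5.58% in Control, was 37.9% and 0.00% after thinning, 78.3% and 14.3% at 2 or more of the 8, and 54.5% and 0.870% at 4 or more. It was 78.2% in CYR61 with no limit on inflammatory genes, 73.3% and 9.14% at 10% mitochondrial UMIs, and 59.8% and 21.8% with every barcode.

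Values that turned sign were near 0 for most genes. Against cells with none, Nfkb1 was at 0.0326 with classes called after thinning, and Syk at -0.29 after thinning and -0.0149 at 4 or more. Against cells with at most 2, Ifi209 was at -0.12 at the later date, and Ifih1 at -0.11 and S100a8 at 0.18 with barcodes of 1 library. Pdgfa was at -0.218 after thinning and -0.225 with every barcode, Pdgfb at 0.12 with every barcode, Rela at 0.0284 unmatched and 0.0081 at 10% mitochondrial UMIs, and Syk at -0.088 thinned, -0.0091 at 4 or more and -0.0389 at 10%. In cells with none, Pdgfb ranged from -0.6887 to 0.2759 with a replicate left out and was 0.0415 with at most 2, and Syk was at -0.1006 with every barcode. Rela was there at -0.0929 with the replicate block, -0.0584 with the date term, -0.0585 at the earlier date and -0.2505 with at most 2. The causes were not tested.

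The replicate numbers were not taken as pairs in the main fit against Control, and whether they pair the samples is not settled. Correlations of deviations between same-numbered libraries were -0.23, 0.27, -0.14 and 0.20, and 3 of 8 libraries correlated best with their own number. With the replicate block, 53 genes passed in cells with none of the 8. Without the library block, 4 passed against cells with none and 0 against cells with at most 2, where 104 had an unadjusted p under 0.05.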
